A study of Mus musculus with 4 samples.

Results

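The Ring1b library is 1 of 4 chromatin immunoprecipitation sequencing libraries made from V6.5 mouse embryonic stem cells, and it was defined by its antibody label. The choice was made with earlier results of these data known. It was set against the pool of the other 3 libraries, which were made with antibodies to REST, MCAF1 and H4K20me3. V6.5 is a line of C57BL/6 and 129 background, and all 4 libraries came from this untreated line. Cells were kept off feeder cells for 2 passages before the Ring1b, MCAF1 and H4K20me3 experiments and for 1 passage before the REST experiment. Each antibody has 1 library on its own flow cell, so antibody, culture and sequencing run cannot be told apart. There was no replicate check of any difference, and the intervals below cover counting error only. Amplified reads are not independent molecules.

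Ring1b (RNF2) is the catalytic subunit of Polycomb repressive complex 1, which places ubiquitin on histone H2A. In embryonic stem cells Polycomb complexes are best known for occupying the CpG-rich promoters of silent developmental regulators, the Hox clusters among them. REST represses neuronal genes and binds DNA at a long sequence motif. MCAF1 works with the histone methyltransferase SETDB1, and H4K20me3 is a mark of constitutive heterochromatin. No gene annotation of mm8, the genome build of the files, was used here. Regions are therefore given by mm8 coordinates, counted from 1, without gene names or sequences.

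After repeated positions were removed, 3023138 Ring1b reads remained on chromosomes 1 to 19. The other libraries held 3063633 (REST), 10818054 (MCAF1) and 7655438 (H4K20me3) distinct reads there and were scaled to the Ring1b total. The pooled level is the mean of these 3 scaled read numbers. A bin that held a read of any library counted as covered, which 4052418 of 4924856 bins of 500 bp did (82.3%). The genome mean was 0.746 Ring1b reads per covered 500-bp bin and 12.8 per covered 10-kb bin. A 500-bp bin was called Ring1b-high when it held at least 8 Ring1b reads and at least 5 times the larger of the pooled level and the genome mean. For a 10-kb bin the ratio had to reach 3. With 1 library per antibody, a call is a rule of size and no test.

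Ring1b was concentrated in a small part of the autosomes at very high read density. The rule called 14170 bins of 500 bp, 0.350% of those covered, and these bins took 421286 Ring1b reads, or 13.9% of the library (95% Clopper-Pearson interval 13.9% to 14.0%). Of the covered 10-kb bins, 1704 (0.720%) were Ring1b-high, and 71 (0.0300%) were Ring1b-low, meaning that the pooled level was at least 3 times the larger of Ring1b and the genome mean. Among the Ring1b-high 10-kb bins, the one with most Ring1b reads lay on chromosome 13 at 40740001–40750000, at 136 times the genome mean. It held 1732 Ring1b, 42 REST, 84 MCAF1 and 145 H4K20me3 reads, a ratio of 42.5 to the pool (36.9 to 49.3). This bin was singled out after its value was seen.

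The Ring1b-high 10-kb bins were not poor in reads of the other libraries. Their median density was 11.9 times the genome mean for Ring1b, 2.75 times for H4K20me3, 2.01 times for REST and 1.71 times for MCAF1. Over all covered 10-kb bins the medians were 0.626, 0.773, 0.849 and 0.875 times. H4K20me3 lay above its own mean in 1668 of the 1704 bins (97.9%, against 38.7% of all covered bins), REST in 1612 (94.6%, against 40.7%) and MCAF1 in 1590 (93.3%, against 43.5%). In 953 of them (55.9%, against 95.9% of all covered bins) none of the other libraries reached 3 times the mean after scaling, and in 33 (1.94%, against 0.413%) all 3 did.

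**Figure D1:**
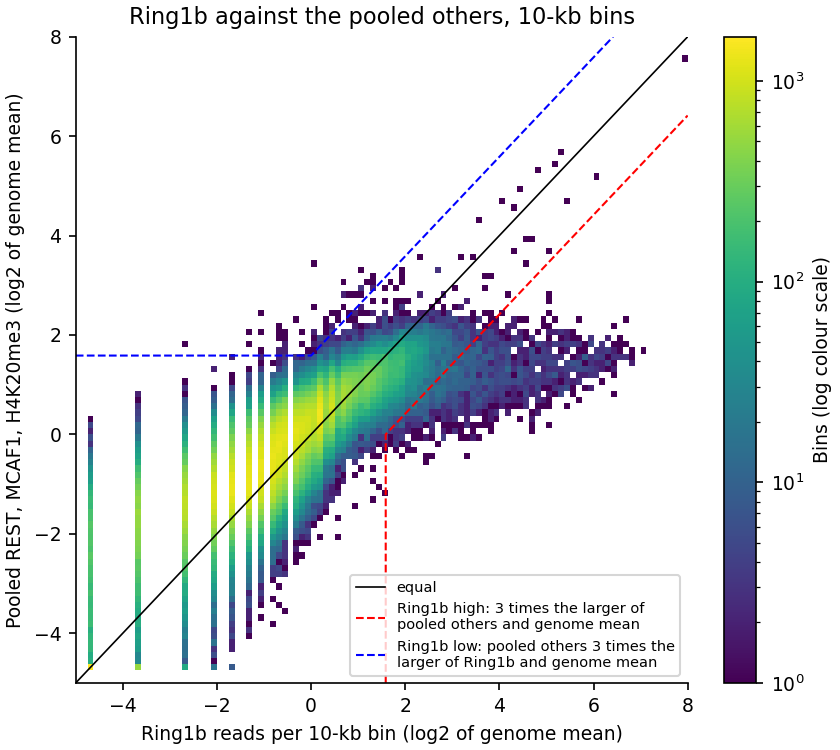
Ring1b reads (x axis) against the pooled REST, MCAF1 and H4K20me3 reads (y axis) per covered 10-kb bin, both as log2 of the genome mean, with bins under 0.5 reads drawn at 0.5 and colour giving the number of bins on a log scale. Most bins run along the diagonal, while the 1704 bins right of the red dashed line extend to over 100 times the genome mean of Ring1b at a nearly level pooled density.

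At equal depth Ring1b was called far more often than any other library under the same rule. Each library was thinned to 3023138 reads and compared with its own 3 others. Ring1b then had 14723 high 500-bp bins (0.417% of covered bins), H4K20me3 had 2449 (0.0694%), REST had 2177 (0.0617%) and MCAF1 had 273 (0.00774%). High bins took 14.1% of Ring1b reads (14.06% to 14.14%), 1.52% of REST reads (1.51% to 1.54%), 0.883% of H4K20me3 reads (0.873% to 0.894%) and 0.0925% of MCAF1 reads (0.0891% to 0.0959%). The bins were chosen on these same reads in 1 library per antibody, so these intervals do not test a difference between antibodies. The 4 comparisons share libraries, since each library stands in the pool of the others. A bin very high in Ring1b therefore raises the pool against which the other libraries were called. Of the covered 10-kb bins, 1731 (0.734%) were Ring1b-high, 331 (0.140%) were H4K20me3-high, 201 (0.0852%) were REST-high and 2 (0.000848%) were MCAF1-high.

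The concentration of reads can be seen without any pool. With 10-kb bins ordered by each library's own reads at equal depth, the top 1% of bins took 16.3% of Ring1b reads (16.2% to 16.3%). The top 1% took 5.03% of H4K20me3 reads (5.01% to 5.06%), 4.96% of REST reads (4.93% to 4.98%) and 3.64% of MCAF1 reads (3.62% to 3.66%). The top 10% of bins took 41.2% of Ring1b reads, whereas the same number of bins took 24.5% to 29.3% of the reads of the other libraries. A median covered bin held 8 Ring1b reads, 10 H4K20me3 reads and 11 reads of REST or MCAF1. The most abundant bin of each library enters these shares, and it held 5920 Ring1b and 4307 REST reads.

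Strength was measured again on reads that had no part in choosing the bins. Bins were chosen on plus-strand reads, with a minimum of 4, and read numbers were then taken from the minus strand. The 18553 bins chosen in this way held 12.6 times the pooled level on the choosing strand and 9.44 times on the other (9.37 to 9.503). With the strands exchanged, the held-out ratio was 9.39 (9.33 to 9.46). At equal depth the held-out ratio was 8.55 for Ring1b (8.48 to 8.62), 4.40 for REST (4.32 to 4.49), 2.55 for H4K20me3 (2.4996 to 2.60) and 1.48 for MCAF1 (1.43 to 1.54). Of the bins chosen on the plus strand, 51.0% were also called on the minus strand for Ring1b, 21.7% for REST, 9.83% for H4K20me3 and 2.29% for MCAF1. The minus strand alone called 20169 bins for Ring1b, 6166 for REST, 10808 for H4K20me3 and 4746 for MCAF1. These shares therefore start from different base rates. Both ends of 1 fragment can be sequenced, so the strands are not fully separate samples.

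High bins with at most 1000 bp between them were joined into 4899 Ring1b-high stretches. The ratio of a single bin is its Ring1b reads over the larger of the pooled level and the genome mean, so where the pool lies below the mean it is a multiple of the mean. The ratio of the highest bin in a stretch had a median of 7.51, and 10% of stretches exceeded 22.2. It reached 20 in 557 stretches and 40 in 224. The top of the distribution was therefore many times the calling threshold of 5, while 10% of the stretches lay below 5.31, close to it. The minimum of 8 reads is 10.7 times the genome mean. Ratios below 10.7, the median among them, thus come from bins where the pool exceeded the mean.

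The single bin with the highest ratio lay on chromosome 11 at 96100501–96101000. It held 91 Ring1b reads, 0 REST, 4 MCAF1 and 1 H4K20me3 read, and its ratio was 122 (98.2 to 150). Its stretch ran from 96092501 to 96122000. The second, on chromosome 7 at 137150501–137151000, held 87 Ring1b, 0 REST, 2 MCAF1 and 4 H4K20me3 reads, a ratio of 117 (93.4 to 144). The third, on chromosome 11 at 44461501–44462000, held 132 Ring1b, 0 REST, 1 MCAF1 and 8 H4K20me3 reads, a ratio of 115 (58.7 to 258.5). Its interval is wider because its pooled level, a handful of reads, exceeded the genome mean and entered the error. The intervals of these bins overlap, so their order is not resolved. They were not the densest in Ring1b. A bin in the stretch on chromosome 2 at 74464501–74508500 stood at 248 times the genome mean, with the pool at 4.51 times.

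The other 7 of the 10 strongest stretches had highest bins with ratios of 106 to 114. They lay on chromosome 7 (70230501–70245000), chromosome 2 (33450501–33467000 and 74464501–74508500), chromosome 6 (51097501–51114000), chromosome 15 (102777501–102816000), chromosome 4 (114398001–114408000) and chromosome 13 (40738501–40756000). The 10 strongest stretches were between 6.5 and 44 kb wide. The narrowest was the stretch on chromosome 11 at 44459501–44466000, with 582 Ring1b, 24 REST, 65 MCAF1 and 85 H4K20me3 reads. Over its whole width the ratio was 23.2 (19.2 to 28.1). The stretch on chromosome 13 was the densest of the 10, at 83.3 times the genome mean over 17.5 kb (79.9 to 86.9) and 33.4 times the pool (29.9 to 37.5). The stretch on chromosome 6 was the least dense, at 32.6 times the mean (30.4 to 34.9), and its H4K20me3 density of 1.33 times the mean (1.06 to 1.65) was also the lowest of the 10.

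Most Ring1b-high stretches were narrow, but most of the reads lay in wide ones. Of 4899 stretches, 3056 (62.4%) were a single bin, 1362 (27.8%) were 1 to 3 kb wide, 379 (7.74%) were 3.5 to 10 kb wide and 102 (2.08%) were wider. The median width was 500 bp. The 481 stretches over 3 kb were 9.82% of all stretches (8.999% to 10.7%) and took 65.2% of the Ring1b reads in stretches. The 102 over 10 kb covered 1.59 Mb and alone took 135573 reads, 31.5% of the reads in stretches and 4.48% of the library. Within stretches over 10 kb, 95.1% of bins passed the rule on their own, and the rest were bridged by joining. With no gap allowed, 419 stretches were over 3 kb.

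Ring1b was denser in wider stretches. Read density was 19.53 times the genome mean in single bins (19.4 to 19.7), 30.4 times in stretches of 1 to 3 kb (30.2 to 30.6), 47.0 times in those of 3.5 to 10 kb (46.8 to 47.2) and 57.0 times above 10 kb (56.7 to 57.3). All 4 classes were chosen on these reads. A separate set of stretches was chosen on plus-strand reads alone with the minimum of 4, which gave 6762 single bins and 1669, 406 and 102 stretches in the wider classes. In the single bins density was 16.7 times the mean on the choosing strand and 9.61 times on the other. It was 27.6 and 25.1 times at 1 to 3 kb, 45.2 and 44.6 times at 3.5 to 10 kb, and 56.8 and 56.3 times above 10 kb. The strands differed most in the single bins. In this set the held-out ratio to the pool was 3.04 for single bins (2.99 to 3.09), below the threshold of 5 that chose them. It was 6.62 for 1 to 3 kb (6.54 to 6.71), 14.2 for 3.5 to 10 kb (14.0 to 14.4) and 23.0 above 10 kb (22.6 to 23.4). Of the 224 stretches whose highest bin reached 40, 91 were over 10 kb, 118 were 3.5 to 10 kb, 15 were 1 to 3 kb and none was a single bin. A wide stretch has more bins from which its highest is taken.

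The other libraries did not follow Ring1b across the width classes. Minus-strand H4K20me3 density was 3.11 times its mean in single bins (3.07 to 3.16), 5.62 times in stretches of 1 to 3 kb (5.56 to 5.69), 4.51 times at 3.5 to 10 kb (4.45 to 4.58) and 3.15 times above 10 kb (3.09 to 3.21). H4K20me3 was thus highest where Ring1b stretches were 1 to 3 kb wide. MCAF1 was lower in each wider class, at 2.79, 2.43, 2.02 and 1.77 times its mean, and REST was at 3.58, 3.34, 2.92 and 2.41 times. Classes were chosen against the pool of these 3 libraries on the other strand, which limits how high they can be.

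The widest stretch covered 55.5 kb of chromosome 6 (52129501–52185000). It held 5365 Ring1b, 256 REST, 611 MCAF1 and 644 H4K20me3 reads, and its Ring1b density was 64.8 times the genome mean (63.1 to 66.6). Of its 111 bins, 102 passed the rule, and the ratio over the whole stretch was 23.8 (22.3 to 25.3). REST stood at 3.05 times its mean there, H4K20me3 at 3.07 times and MCAF1 at 2.06 times.

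The second widest covered 44 kb of chromosome 2 (74464501–74508500) with 4311 Ring1b, 149 REST, 404 MCAF1 and 424 H4K20me3 reads. It had the highest ratio of the 10 widest, 30.3 (28.0 to 32.7). Ring1b was uneven inside it, with ratios of single bins between 1.05 and 110. The third, on chromosome 15 (102777501–102816000), was 38.5 kb wide, with 3312 Ring1b and 131 REST reads, a ratio of 27.5 (25.2 to 29.98). The fourth, on chromosome 11 (96092501–96122000), was 29.5 kb wide, with 2747 Ring1b and 120 REST reads, a ratio of 25.2 (23.0 to 27.6). It is the stretch that also held the single bin with the highest ratio.

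**Figure D2:**
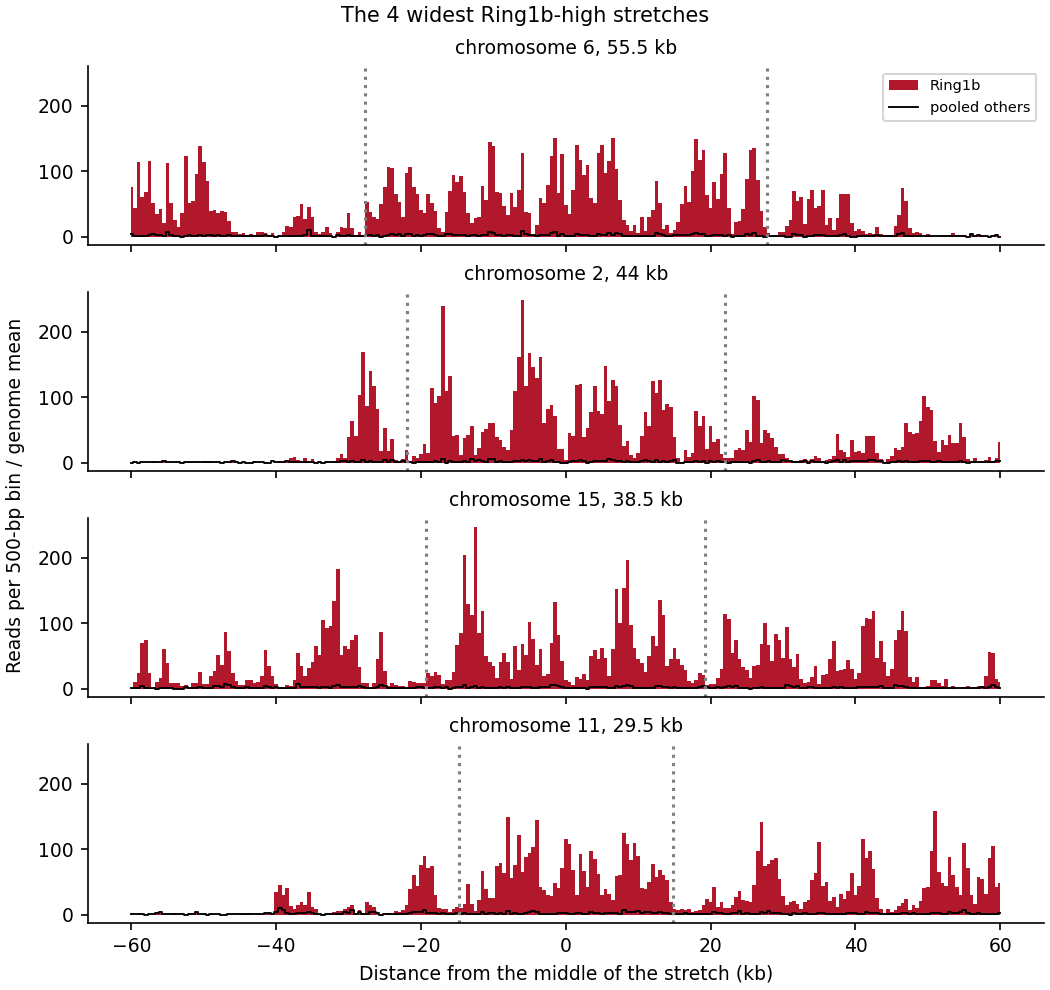
Reads per 500-bp bin divided by the genome mean (y axis) against distance from the middle of the stretch in kb (x axis) for the 4 widest Ring1b-high stretches, with Ring1b in red, the pooled others as a black line and stretch edges dotted. Ring1b rises in several blocks inside and beyond each stretch, up to over 200 times the mean on chromosomes 2 and 15, while the pooled level stays near the axis.

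Widths in the rest of the 10 widest fell between 22.5 and 28 kb. These were a second stretch on chromosome 15 (102817501–102845500), 1.5 kb beyond the end of the first, 1 on chromosome 2 (105466001–105492000), 1 more on chromosome 6 (52086001–52111000), 1 more on chromosome 11 (96126001–96150500), 1 on chromosome 5 (139789501–139812000) and 1 on chromosome 19 (44793001–44815500). Their ratios were between 21.2 and 24.7, narrower than the range among single bins. The chromosome 5 stretch stood alone, 347.5 kb from the nearest other stretch. Of the 10 widest, 8 had a neighbour within 2.5 kb and the chromosome 19 stretch had one at 4 kb. Across the 10 widest, REST density lay between 2.02 and 3.05 times its mean, H4K20me3 between 2.30 and 3.43 times and MCAF1 between 1.34 and 2.06 times.

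Wide stretches of this kind were rare in the other libraries. At equal depth Ring1b had 486 stretches over 3 kb (8.93% of 5443, interval 8.18% to 9.72%) and H4K20me3 had 25 (1.31% of 1915, 0.847% to 1.92%). REST had 0 of 2028 and MCAF1 had 0 of 271, with upper limits of 0.182% and 1.35% from the exact interval. Ring1b had 101 stretches over 10 kb, H4K20me3 had 2, and the widest single stretch was 55.5 kb in Ring1b, 17.5 kb in H4K20me3, 2.5 kb in REST and 2 kb in MCAF1. Of REST stretches 92.8% were a single bin, against 65.4% of Ring1b stretches. A library with lower ratios passes the threshold in fewer neighbouring bins, so width and strength are not independent measures here.

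**Figure D3:**
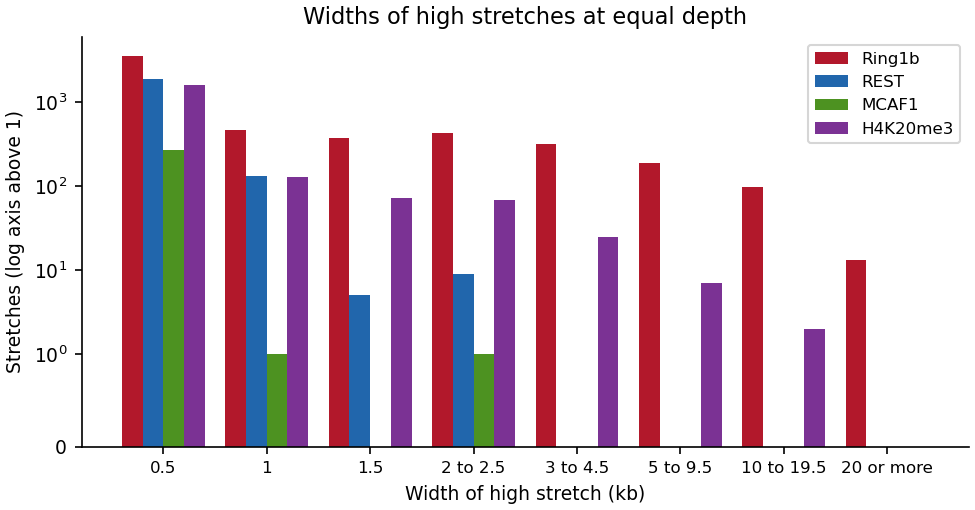
Number of high stretches (y axis, log scale above 1) by width in kb (x axis) for each library at equal depth under the same rule. Ring1b alone has stretches of 20 kb or more (13), and REST and MCAF1 have none of 3 kb or more.

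The average shape was compared on held-out reads as well. Around the highest bin of stretches chosen on the plus strand at equal depth, minus-strand Ring1b density was 13.3 times the mean at the centre (13.2 to 13.4), as the average of both sides, 3.396 times at 2 kb, 2.35 times at 5 kb, 2.05 times at 10 kb and 1.73 times at 15 to 20 kb. Taken at 0.5 of the height above the level at 15 to 20 kb, the peak was 1.62 kb wide for Ring1b, 0.9748 kb for H4K20me3, 0.660 kb for MCAF1 and 0.578 kb for REST, where a bin is 0.5 kb. REST density at its own centres was 9.38 times the mean and had dropped to 1.502 times at 2 kb. At 1 kb on either side REST was at 1.70 and 1.67 times its mean and Ring1b at 6.34 and 6.29 times. The averages are over 10246 Ring1b and 6051 REST stretches. At the Ring1b centres, H4K20me3 reads stood at 3.31 times their mean (3.26 to 3.37), REST at 3.18 times (3.12 to 3.23) and MCAF1 at 2.48 times (2.43 to 2.53).

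**Figure D4:**
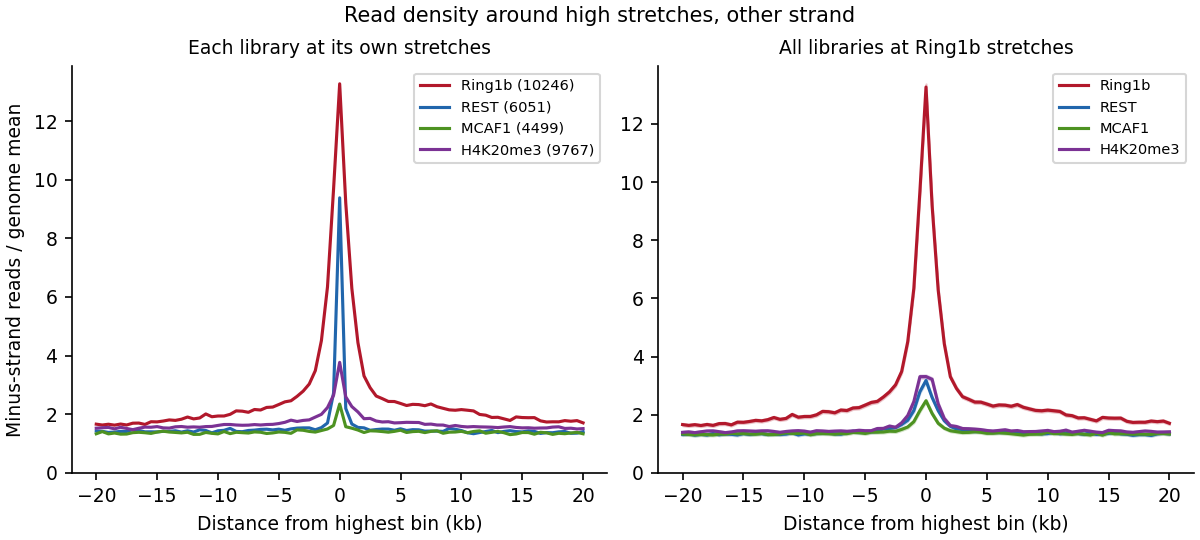
Minus-strand read density relative to the genome mean (y axis) against distance in kb (x axis) from the highest bin of stretches chosen on plus-strand reads at equal depth, for each library at its own stretches (left, number of stretches in brackets) and for all libraries at Ring1b stretches (right, shading for the 95% Poisson interval). Ring1b peaks at 13.3 and stands at 1.94 and 2.16 at 10 kb to either side, and REST peaks at 9.38 and stands at 1.43 and 1.44 there.

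Some Ring1b-high stretches lay close to another one. The share to be expected of stretches placed at random was not computed. Of the 4899 stretches, 845 (17.2%, 16.2% to 18.3%) had another within 10 kb, 1002 (20.5%) had the nearest at 10 to 50 kb and 1775 (36.2%) at 100 to 500 kb. The median gap was 87 kb. For 175 stretches (3.57%) the nearest was over 1000 kb away. The joining distance sets the share within 10 kb, which was 34.4% with no joining and 5.56% with joining at 5000 bp.

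High 10-kb bins also lay near one another. A wide stretch that crosses a bin border can make both bins high, so the shares at short distances mix width with clustering. Of 1704 Ring1b-high bins, 408 (23.9%, 21.9% to 26.04%) were followed by a high bin at 10 kb, 8.98% at 20 kb (7.67% to 10.4%), 3.89% at 50 kb (3.02% to 4.93%) and 3.24% at 100 kb (2.45% to 4.20%). At 200 kb the share was 0.827% (0.453% to 1.38%), and 0.720% of all covered bins were high. At 500 kb it was 1.005% (0.587% to 1.60%) and at 1000 kb 1.39% (0.882% to 2.08%). The share was highest at 10 kb and its interval included the genome share at 200 and 500 kb, but at 1000 kb the lower limit lay above it. High bins formed 1296 runs, of which 1020 (78.7%) were 1 bin long and 22 were longer than 30 kb, up to 140 kb. At equal depth the share followed by a high bin at 10 kb was 23.8% for Ring1b (21.8% to 25.9%), 12.4% for H4K20me3 (9.065% to 16.5%) and 2.99% for REST (1.10% to 6.38%). The share of stretches with another within 10 kb gave a different order, with 16.7% for Ring1b (15.7% to 17.7%), 19.9% for H4K20me3 (18.2% to 21.8%) and 6.71% for REST (5.66% to 7.88%).

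The densest 1-Mb windows were of different kinds. Chromosome 15 from 102000001 to 103000000 held 23 stretches that summed to 116.5 kb, and its Ring1b density was 7.13 times the mean (6.99 to 7.26), against 1.66 for REST, 1.53 for MCAF1 and 1.63 for H4K20me3. Chromosome 11 from 96000001 to 97000000 held 16 stretches summing to 110.5 kb, at 7.45 times the mean (7.32 to 7.59). The 15 stretches on chromosome 7 from 18000001 to 19000000 summed to only 9 kb, and none was wider than 2 kb. There Ring1b was at 2.39 times its mean (2.31 to 2.47), no denser than H4K20me3 at 2.38 times (2.33 to 2.43). Chromosome 10 from 79000001 to 80000000 held 15 stretches (22.5 kb) and chromosome 2 from 118000001 to 119000000 held 14 (19 kb). The first pair are windows of wide Ring1b blocks, and in the window on chromosome 7 many small stretches lay in sequence rich in reads of every library, with REST at 2.22 and MCAF1 at 1.96 times their means.

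Ring1b-high stretches lay on every autosome, and most 1-Mb windows held at least 1. Of 2354 windows of 1 Mb with at least 50% of bins covered, 1647 (69.97%) held a stretch and 707 (30.03%) held none. The 10% of windows with the most stretches held 34.8% of all stretches. The longest run without one was 9.07 Mb on chromosome 1 (111811001–120879500), where 72.2% of bins were covered and Ring1b reads stood at 0.461 times the mean, REST at 0.643, MCAF1 at 0.594 and H4K20me3 at 0.550 times. Runs of 7.73 Mb on chromosome 17 (15536001–23265500) and 7.55 Mb on chromosome 14 (85227001–92774500) followed. All 4 libraries were sparse in these runs.

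Chromosomes differed in the number of stretches by up to 1.9-fold. Chromosome 19 had 3.36 stretches per covered Mb (2.88 to 3.90) and chromosome 11 had 3.35 (3.01 to 3.71), against 2.42 over all autosomes. Chromosome 16 had 1.77 (1.497 to 2.09) and chromosome 1 had 1.86 (1.65 to 2.08). Chromosome 16 also had the fewest stretches over 3 kb, 6 in all, while chromosome 2 had 56. High bins took 20.3% of the Ring1b reads of chromosome 2, 18.98% of those of chromosome 19 and 7.56% of those of chromosome 16. The other libraries moved with the read density of a chromosome. Chromosome 11 stood at 1.21 to 1.27 times the mean in REST, MCAF1 and H4K20me3 and at 1.29 times in Ring1b, and chromosome 16 at 0.872 to 0.913 times in the others and at 0.833 in Ring1b. The ratio of Ring1b to the pool over a whole chromosome ran from 0.927 on chromosome 16 to 1.10 on chromosome 19.

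**Figure D5:**
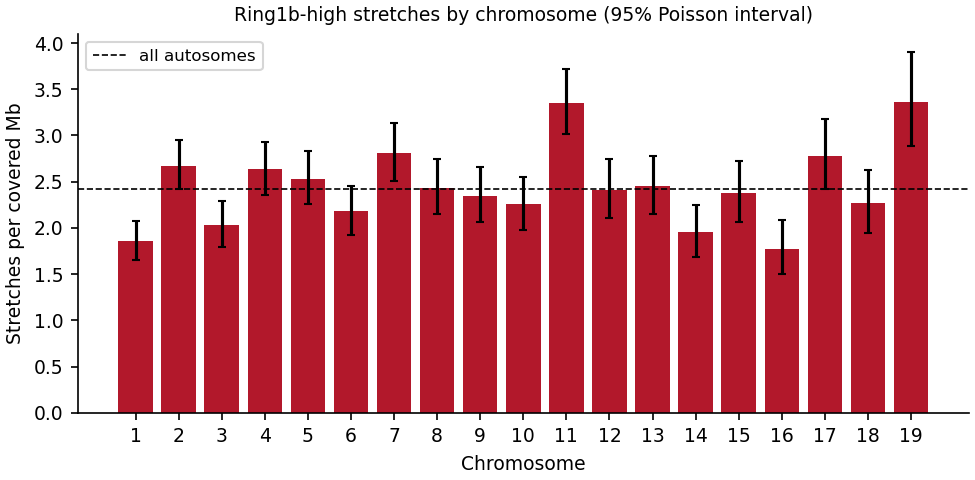
Ring1b-high stretches per covered Mb (y axis) for each autosome (x axis) with 95% Poisson intervals, and the value over all autosomes as a dashed line. Chromosomes 11 and 19 lie above 3.3 and chromosomes 1 and 16 below 1.9, with intervals clear of the dashed line at 2.42. These chromosomes are the extremes, and the intervals treat stretches as independent although some lie close together, so no difference is tested.

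Ring1b-high 10-kb bins were more frequent where the surroundings were rich in reads of the other libraries. Covered 10-kb bins were split into 10 equal groups by the pooled level over the surrounding 1 Mb, the bin itself left out. From the lowest to the highest group, the share of Ring1b-high bins was 0.0972% (0.0616% to 0.146%), 0.262%, 0.448%, 0.562%, 0.668%, 0.807%, 1.11%, 1.05%, 1.08% and 1.11% (0.982% to 1.25%). The share rose through the lower 7 groups and was level in the upper 4. A high bin needs at least 3 times the genome mean in every group. In sparse surroundings a bin must therefore exceed its local level by more, and how far this shapes the rise was not tested. Outside the high bins, Ring1b stood at 0.861 to 0.899 times the pooled level in all 10 groups. Taken over whole groups, Ring1b outside its high bins thus kept a nearly constant ratio to the pooled level. This ratio lay below 1 since the equal totals include the reads in high bins. Proportion within single bins was not measured.

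Ring1b-low bins were few. The rule asks for a pooled level of at least 3 times the genome mean, so bins sparse in all libraries do not enter. Of the 71 Ring1b-low 10-kb bins, H4K20me3 was the highest scaled library in 46 (64.8%), REST in 25 (35.2%) and MCAF1 in 0. The lowest lay on chromosome 10 at 82830001–82840000 with 2 Ring1b, 13 REST, 66 MCAF1 and 249 H4K20me3 reads, a ratio of 0.0463 (0.00558 to 0.169). H4K20me3 stood at 7.70 times its mean there (6.77 to 8.71). Bins at 82800001–82810000 and 82850001–82860000 on the same chromosome were also among the 5 lowest, with 6 and 4 Ring1b reads against 386 and 221 of H4K20me3. They held 15 and 5 REST reads. In the bin at 82850001 REST was about as low as Ring1b, at 0.386 against 0.313 times the mean. Chromosome 17 at 6590001–6600000 held 13 Ring1b and 890 H4K20me3 reads, the latter 27.5 times its mean (25.7 to 29.4). Ring1b itself was at its genome mean in that bin, at 1.02 times (0.542 to 1.74), and the low ratio there goes with the high H4K20me3 level. On chromosome 9 at 121170001–121180000, Ring1b held 5 reads, 0.391 times its mean (0.127 to 0.913), and H4K20me3 held 332. REST was also low there, with 7 reads at 0.541 times its mean (0.217 to 1.11), while MCAF1 stood at 1.68 times. Ring1b and REST were aligned with a seed of 26 bases and MCAF1 and H4K20me3 with 36. Whether this plays a part in these bins was not tested.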

How the data were processed

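The deposited values are signed read positions on mm8 (unit: other), not normalised, negative for reads on the minus strand. The authors aligned reads with Bowtie, per the file headers, allowing 2 seed mismatches, a mismatch quality sum of 70 and at most 2 locations; the seed was 26 bases for Ring1b and REST and 36 for MCAF1 and H4K20me3. The sources used here do not say which end of a minus-strand read its position marks. Sonicated fragments averaged 500 bp, per the labels' protocols. Gel cuts were 150 to 300 bp for Ring1b and MCAF1 and 150 to 350 bp for REST and H4K20me3. Inserts of 50 to 200 nt and 18 PCR cycles were given for every library. The part of the gel cut in the widths compared above was not tested.

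Reads with 1 location were kept once per position and strand and moved 75 bp towards their 3′ end. Repeated positions took 6.33% of autosomal Ring1b reads and 2.06% to 12.7% in the others. Intervals are 95% exact Poisson (read numbers) or Clopper-Pearson (shares); those of ratios treat the weighted pool as a Poisson count of equal relative error and are approximate. Where the pool lay below the genome mean in a single bin, the mean was the divisor. The calling rule was tested on simulated data. Named regions were the 10 strongest and 10 widest stretches, the 5 fullest 1-Mb windows, the 5 lowest 10-kb bins and the extreme chromosomes; the longest runs without a stretch were added after values were seen. The library and rule were chosen with earlier results of these data known. Alternatives covered read minimum, fold, scaling, repeats, shift, bin start, pool and joining. Software was matplotlib 3.10.9, scipy 1.17.1, numpy 2.4.6 and Python 3.11.15.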

Additional observations from a re-analysis of the deposited data

Results flagged for a closer look

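Some reads stood outside the comparison above and are given as values only; no control library was used here, so they are above a count of 0 and no more than that can be said. On the X chromosome, 386 Ring1b-high bins of 500 bp were found with the autosomal scaling and mean, 0.217% of 177571 covered bins. The fullest, at 11235501–11236000, held 54 Ring1b, 2 REST, 6 MCAF1 and 6 H4K20me3 reads. Alignments of reads with 2 locations gave 439 such bins on chromosomes 1 to 19, 0.0436% of 1007180 covered bins. The fullest, on chromosome 4 at 122619001–122619500, held 85 Ring1b, 15 REST, 30 MCAF1 and 52 H4K20me3 alignments.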

How the results depend on the processing

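No paired analysis was possible because each antibody has 1 library. Of 95 alternative values, 63 stayed within 1.5 times a count or within the counting interval of a share and 32 did not. A reversal was not defined for these measures. The fold required moved most results. At folds of 3 (500-bp bins) and 2 (10-kb bins) there were 23129 high bins of 500 bp, 3391 high and 1488 low bins of 10 kb, 17.8% of Ring1b reads in high bins and 22.2% of stretches with another within 10 kb. At folds of 10 and 5 these were 7224, 888, 3, 9.76% and 25.6%, with a median width of 1000 bp and 319 stretches over 3 kb. Against the highest of the 3 others in place of their mean there were 9013 high bins of 500 bp, 823 low bins of 10 kb, 10.9% of reads and 22.5% of stretches. The number of low bins was least stable, at 31 with background scaling, 141 without REST and 171 without MCAF1 in the pool. The share of reads in high bins was 14.4% at 6 reads, 13.1% at 12 reads, 15.3% with background scaling, 14.3% with repeats kept, 13.87% with reads not moved, 13.88% with bins from 250 bp, 14.4% without REST, 13.3% without MCAF1, 14.9% without H4K20me3 and 14.1% after thinning. With no joining 34.4% and with joining at 5000 bp 5.56% of stretches had another within 10 kb. The top 0.1% of 10-kb bins took 6.01% of Ring1b reads. Another thinning seed left the top 1% share as it was, because the Ring1b library is the smallest and lost no reads. Among named regions, the 10 strongest kept ratios of at least 73.9 and the 10 widest of at least 19.8 under each change of pool or scaling. The 5 lowest reached 0.352 without H4K20me3. The 10 strongest were picked on their ratio. Where the genome mean was the divisor, a change of pool or scaling could not move it unless the new pool exceeded the mean. The highest bin of the chromosome 2 stretch at 74464501 thus stayed at 110 throughout. At 0.746 Ring1b reads per bin, a bin needed 8 reads, so enrichment under about 10.7 times the mean in a single bin was not detectable.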
